A study of Mus musculus with 6 samples.

Results

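The 10 endothelial cell markers described here are Cdh5, Pecam1, Esam, Emcn, Kdr, Flt1, Tie1, Tek, Sox17 and Sox18, genes expressed in the cells that line blood vessels. Their probes were taken by name and not by level, as every probe that the array files give one of these gene names. This gave 14 of the 55681 different probes on the array and 10 of its 32138 gene names. The markers and the other gene lists used below were themselves chosen with earlier results of these data known. Pancreatic RNA from newborn C57BL/6N mice (postnatal day 0.5, whole organ) was hybridised to single-colour arrays, 1 array per sample and 2 arrays per genotype. The genotypes were Spink3-/-, Spink3-/-XKI/+ and, as the control, Spink3+/+. Spink3 encodes a trypsin inhibitor of acinar cells, and per the series' design acinar cells of Spink3-/- all undergo a nonapoptotic death with autophagy, while in Spink3-/-XKI/+ a part of them is normal. The labels do not say what XKI stands for, so the difference of Spink3-/-XKI/+ from Spink3-/- is known here only by that name. Nor do they name separate animals for the samples of a genotype, so each p-value reflects the spread among these arrays alone, and that spread may be technical. The comparisons ask how the transcripts of the pancreatic vessels stood in a pancreas whose acinar cells die.

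Endothelial cells form the inner wall of blood vessels and hold to each other through junction proteins. Their growth and survival depend on receptors for vascular endothelial growth factor (VEGF) and on the TIE receptors, to which angiopoietins signal. In the pancreas the vessels run among acini and in dense capillaries through the islets, and vessel-derived signals take part in the development of the organ.

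Levels are given as log2 of the background-subtracted probe signal over the array's own 75th percentile, so 0 is that percentile. A probe's brightness also depends on its sequence, so levels are compared between arrays and never between probes. Kdr and Flt1 had several probes, which lie in different parts of each gene and read different pieces of its transcripts. The first 30 bases of each are shown because these probes did not move alike. Coordinates are those of the array files, build mm9, and all 5 probes lie on the minus strand.
Kdr probe 1, chr5:76329309-76329368: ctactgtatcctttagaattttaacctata
Kdr probe 2, chr5:76330395-76330454: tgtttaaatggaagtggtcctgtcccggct
Flt1 probe 1, chr5:148373791-148373850: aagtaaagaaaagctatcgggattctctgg
Flt1 probe 2, chr5:148446872-148446931: ggagggtactgccgttcctgtgtggtattt
Flt1 probe 3, chr5:148465976-148466035: tccctatcccaactacacattcaatcttct

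Tie1 and Tek encode the 2 TIE receptors, and their probes are related in sequence, which is why both are shown whole. Capitals mark the bases that are identical when the probes are laid side by side without gaps, the Tek probe starting 3 bases later than the Tie1 probe. Of the 57 bases that face each other, 39 are identical, and 12 of the 18 that differ fall on the same position of successive triplets. Pecam1 and Emcn probes are also shown whole. Each of these 4 probes has at least 1 reading frame without a stop. So do all other marker probes except Cdh5, Esam and Sox17 probe 2, so this does not set the 4 apart.
Tie1, chr4:118144132-118144191, minus strand: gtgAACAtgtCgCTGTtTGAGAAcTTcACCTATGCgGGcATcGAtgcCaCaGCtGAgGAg
Tek, chr4:94540624-94540683, plus strand: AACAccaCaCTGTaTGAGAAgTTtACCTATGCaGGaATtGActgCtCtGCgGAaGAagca
Pecam1, chr11:106540864-106540923, minus strand: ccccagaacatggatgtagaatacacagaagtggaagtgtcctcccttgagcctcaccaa
Emcn, chr3:137086389-137086448, plus strand: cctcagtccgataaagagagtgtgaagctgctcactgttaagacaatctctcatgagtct

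Spink3 itself checked the labels. Its level was 3.25 and 2.95 in Spink3-/-, 2.64 and 2.34 in Spink3-/-XKI/+, and 9.84 and 10.26 in Spink3+/+ (limma adjusted p = 0.00209 and 0.00125 against Spink3+/+). No source used here says if that probe falls in the part of the gene that was removed. Between 42.4% and 50.8% of spots per array were well above background, and no spot was saturated. All arrays shared 1 slide and 1 scan. Slide row 1 held both Spink3+/+ arrays and replicate 1 of Spink3-/-, and slide row 2 held replicate 2 of Spink3-/- and both Spink3-/-XKI/+ arrays. Row and genotype therefore cannot be told apart between Spink3-/-XKI/+ and Spink3+/+, except through the Spink3-/- arrays that lie in both rows. A fit with the slide row as a block takes the row from those 2 arrays alone. Its difference of Spink3-/- from Spink3+/+ rests on replicate 1 of Spink3-/-, and that from Spink3-/-XKI/+ on replicate 2. Its difference of Spink3-/-XKI/+ from Spink3+/+ depends on the gap between the 2 Spink3-/- arrays. With 2 arrays per genotype, precision is limited throughout. Most of the markers were detected in the labelled tissue: 11 of the 14 probes, of 8 genes, were well above background on all 6 arrays. Of all 55681 different probes, 20736 were.

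No endothelial marker passed the test in any comparison. The fit covered the 24818 probes that cleared the background on both arrays in 1 or more genotypes, and 13 of the 14 marker probes were among them. The lowest adjusted p of a marker was 0.881 in Spink3-/- against Spink3+/+, 0.673 in Spink3-/-XKI/+ against Spink3+/+, and 0.721 in Spink3-/- against Spink3-/-XKI/+ (limma, Benjamini-Hochberg over all tested probes). Calls were few among all probes too, 0.0443%, 0.00806% and 0% of them in these 3 comparisons. At an unadjusted p under 0.05 there were 2, 1 and 1 marker probes of the 13, against 4.93%, 6.8% and 6.5% of all tested probes. These were Tie1 and Flt1 probe 3 in the first comparison, Cdh5 in the second and Flt1 probe 3 in the third. Flt1 probe 3 was among the tested probes only through Spink3-/-, where it was high. In data simulated for Spink3-/- against Spink3+/+, 0 of 50 probes lowered by 1 log2 unit were called, and 30 of 50 lowered by 2. What follows describes levels array by array.

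**Figure D1:**
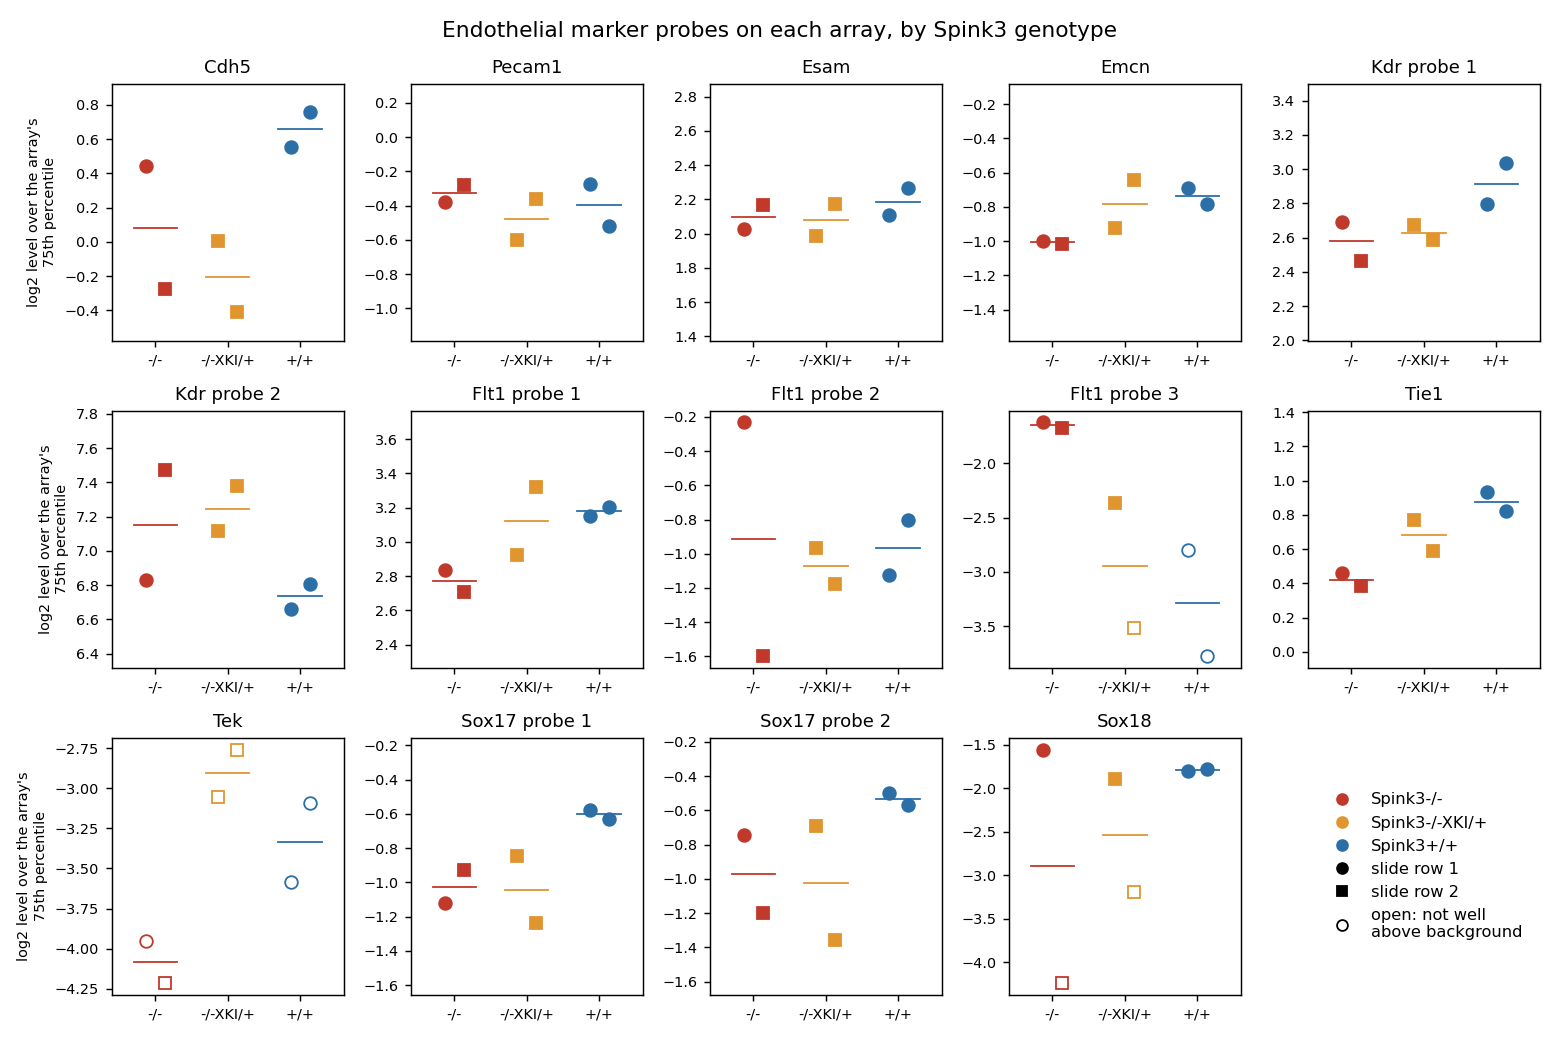
Log2 signal relative to the 75th percentile of its array (y axis, own range in each panel) of each of the 14 endothelial marker probes in Spink3-/-, Spink3-/-XKI/+ and Spink3+/+ (x axis). Each point is 1 array, lines are means of 2 arrays, circles and squares are slide rows 1 and 2, and open points were not well above background. Among tested probes, both Spink3-/- points lie below both Spink3+/+ points in the panels of Cdh5, Emcn, Kdr probe 1, Flt1 probe 1, Tie1 and both Sox17 probes, and above them in those of Kdr probe 2 and Flt1 probe 3.

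The junction and surface proteins did not move as 1 group. Cdh5 encodes VE-cadherin, the cadherin of endothelial adherens junctions. Its level was 0.44 and -0.27 in Spink3-/-, 0.00 and -0.41 in Spink3-/-XKI/+, and 0.56 and 0.76 in Spink3+/+. Both Spink3+/+ arrays were above every other array, and the 2 Spink3-/- arrays were far apart from each other (SD 0.51, n = 2). The log2 difference was -0.57 in Spink3-/- (SE 0.29, limma adjusted p = 0.992) and -0.86 in Spink3-/-XKI/+ (SE 0.29, limma adjusted p = 0.673, unadjusted p = 0.0255), both against Spink3+/+. All 3 arrays of row 1 were above all 3 of row 2 for this gene. With the slide row as a block, the differences were -0.21 and -0.14. The first rests on replicate 1 of Spink3-/- alone, and the second depends on the gap between the 2 Spink3-/- arrays.

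Emcn encodes endomucin, a mucin-like surface protein of capillary and venous endothelium. Its level was -0.997 and -1.01 in Spink3-/-, -0.92 and -0.64 in Spink3-/-XKI/+, and -0.69 and -0.78 in Spink3+/+. The Spink3-/- arrays were the lowest and nearly equal, while the ranges of the other two genotypes overlapped. The difference of Spink3-/- was -0.27 from Spink3+/+ (SE 0.18, limma adjusted p = 0.992) and -0.22 from Spink3-/-XKI/+ (SE 0.18, limma adjusted p = 0.916). It was -0.26 and -0.23 with the slide row as a block.

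Pecam1 encodes CD31, an immunoglobulin-family adhesion molecule of endothelium that platelets and leukocytes also carry. Its level was -0.38 and -0.28 in Spink3-/-, -0.60 and -0.36 in Spink3-/-XKI/+, and -0.28 and -0.52 in Spink3+/+. All genotypes overlapped, and the difference of Spink3-/- from Spink3+/+ was 0.07 (SE 0.19). Pecam1 was printed in 2 spots per array, whose pooled SD of 0.18 was no smaller than the pooled SD of 0.14 between arrays of a genotype. Esam, an adhesion molecule of endothelial tight junctions, had levels of 2.03 and 2.17 in Spink3-/-, 1.99 and 2.18 in Spink3-/-XKI/+, and 2.11 and 2.26 in Spink3+/+. These also overlapped, and the difference of Spink3-/- from Spink3+/+ was -0.09 (SE 0.18). Whole pancreas was measured, so fewer endothelial cells and less RNA per endothelial cell cannot be told apart for any marker.

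Among the VEGF receptors, Kdr encodes VEGFR2, the main signalling receptor of endothelial cells. Kdr probe 1 was printed in 10 spots per array, and each of its levels is a mean over them. Its level was 2.69 and 2.46 in Spink3-/-, 2.67 and 2.58 in Spink3-/-XKI/+, and 2.80 and 3.03 in Spink3+/+. Both Spink3+/+ arrays were above all others, and the other two genotypes overlapped. The pooled SD between spots of an array was 0.04, against 0.14 between arrays of a genotype, so arrays of a genotype differed by more than spots of an array. The difference was -0.34 in Spink3-/- (SE 0.19, limma adjusted p = 0.992) and -0.29 in Spink3-/-XKI/+ (SE 0.19, limma adjusted p = 0.821), both against Spink3+/+. All row 1 arrays were above all row 2 arrays, and the differences were -0.23 and -0.06 with the row as a block.

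Kdr probe 2 lies 1.086 kb upstream of probe 1 on the transcript's strand and ran the other way. Its level was 6.83 and 7.47 in Spink3-/-, 7.12 and 7.38 in Spink3-/-XKI/+, and 6.66 and 6.81 in Spink3+/+. Both mutant genotypes were above Spink3+/+ without overlap, by 0.42 and 0.51 (SE 0.26 each, limma adjusted p = 0.992 and 0.778). All row 2 arrays were above all row 1 arrays. With the row as a block, the difference of Spink3-/- was 0.10 and that of Spink3-/-XKI/+ was -0.13, so the direction of Spink3-/-XKI/+ against Spink3+/+ turned. The 2 probes of Kdr disagreed in direction in both comparisons with Spink3+/+, so no single direction for the gene can be given.

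**Figure D2:**
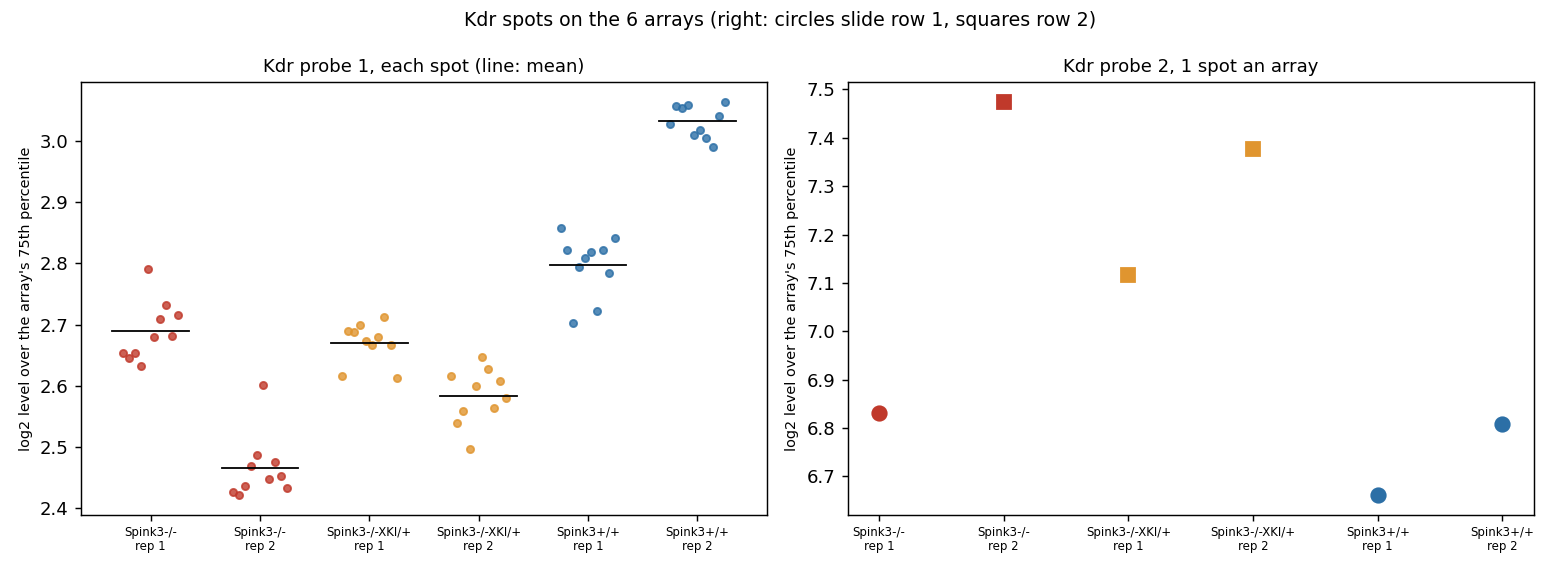
Log2 signal relative to the 75th percentile of its array (y axis) of the 10 spots of Kdr probe 1 on each array (left, line: mean) and of the 1 spot of Kdr probe 2 (right), with the arrays of Spink3-/-, Spink3-/-XKI/+ and Spink3+/+ on the x axis. Spots of an array lie close together (pooled SD 0.04), probe 1 is highest on the Spink3+/+ arrays, and probe 2 is lowest on Spink3+/+ replicate 1 (6.66) and highest on Spink3-/- replicate 2 (7.47).

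Flt1 encodes VEGFR1, which binds VEGF-A tightly, signals weakly, and is also made as a secreted form that traps the ligand. Flt1 probe 1 had levels of 2.83 and 2.71 in Spink3-/-, 2.92 and 3.32 in Spink3-/-XKI/+, and 3.15 and 3.21 in Spink3+/+. The Spink3-/- arrays were below all others, and Spink3-/-XKI/+ overlapped Spink3+/+. The difference of Spink3-/- was -0.41 from Spink3+/+ (SE 0.20, limma adjusted p = 0.992) and -0.35 from Spink3-/-XKI/+ (SE 0.20, limma adjusted p = 0.843). With the row as a block these were -0.34 and -0.41.

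Flt1 probe 2, which lies 73.08 kb upstream of probe 1, had levels of -0.23 and -1.60 in Spink3-/-, -0.97 and -1.18 in Spink3-/-XKI/+, and -1.13 and -0.80 in Spink3+/+. The 2 Spink3-/- arrays were the highest and the lowest of the 6. Flt1 probe 3, 92.19 kb upstream of probe 1, was well above background on both Spink3-/- arrays (-1.62 and -1.67), on 1 of the 2 Spink3-/-XKI/+ arrays (-2.36 and -3.52) and on neither Spink3+/+ array (-2.80 and -3.78). With the main processing, its mean signal was at least 1.73-fold higher in Spink3-/- than in Spink3+/+. For this bound each Spink3+/+ array was given its lowest signal well above background or the probe's own value, whichever was higher. The bound carries no error. Its fitted difference of 1.64 (SE 0.46, unadjusted p = 0.0117, limma adjusted p = 0.881) is no bound. With normexp background correction the fitted difference was 0.50, so its size depended on how background was handled. This probe passed the filter through Spink3-/- alone. The array's annotation assigns probe 1 to NM_010228, probe 2 to ENSMUST00000110529 and probe 3 to AK005502, so the 3 probes need not read the same transcript.

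Tie1, the receptor without a well-established ligand that modulates its partner Tek, had no overlap between any of the 3 genotypes. Its level was 0.46 and 0.38 in Spink3-/-, 0.77 and 0.59 in Spink3-/-XKI/+, and 0.93 and 0.82 in Spink3+/+. Spink3-/- was lowest and Spink3-/-XKI/+ lay in between. The mean was 0.42 ± 0.05 in Spink3-/-, 0.68 ± 0.13 in Spink3-/-XKI/+ and 0.88 ± 0.08 in Spink3+/+ (SD, n = 2 each). Spink3-/- was 1.37-fold lower than Spink3+/+, a log2 difference of -0.46 (SE 0.17, unadjusted p = 0.0391, limma adjusted p = 0.992). The differences were -0.20 in Spink3-/-XKI/+ against Spink3+/+ and -0.26 in Spink3-/- against Spink3-/-XKI/+ (SE 0.17 each, limma adjusted p = 0.857 and 0.877). With the row as a block the 3 differences were -0.42, -0.12 and -0.30.

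Tek, which encodes the angiopoietin receptor TIE2, was not well above background on any of the 6 arrays. Its 1 probe was therefore not tested, and no fold is given. The measured values were -3.95 and -4.22 in Spink3-/-, -3.05 and -2.76 in Spink3-/-XKI/+, and -3.58 and -3.09 in Spink3+/+. Values below background have no firm order. Tek is the only one of the 10 markers that was below background everywhere, and a dim probe does not show that the transcript was missing.

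Sox17 and Sox18 encode transcription factors of the SoxF group, which act in vessel formation. Sox17 is also known in endoderm. Sox17 probe 1 had levels of -1.12 and -0.93 in Spink3-/-, -0.85 and -1.24 in Spink3-/-XKI/+, and -0.58 and -0.63 in Spink3+/+. Sox17 probe 2 had levels of -0.74 and -1.20 in Spink3-/-, -0.69 and -1.35 in Spink3-/-XKI/+, and -0.50 and -0.57 in Spink3+/+. With both probes the Spink3+/+ arrays were above every other array, and the 2 mutant genotypes overlapped. The differences from Spink3+/+ were -0.42 and -0.44 in Spink3-/- and -0.44 and -0.49 in Spink3-/-XKI/+ (SE 0.20 for probe 1 and 0.28 for probe 2, limma adjusted p between 0.767 and 0.992). With the row as a block they were -0.52 and -0.21 in Spink3-/-, and -0.63 and -0.04 in Spink3-/-XKI/+.

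Sox18 was well above background on 1 Spink3-/- array and 1 Spink3-/-XKI/+ array, and on both Spink3+/+ arrays. It therefore passed the filter through Spink3+/+ alone, the genotype with its highest mean. Its values were -1.56 and -4.24 in Spink3-/-, -1.89 and -3.20 in Spink3-/-XKI/+, and -1.80 and -1.79 in Spink3+/+. The dim array of each mutant genotype was its replicate 2, and replicate 1 of Spink3-/- was the highest of all. The difference of -1.11 in Spink3-/- (SE 0.87, limma adjusted p = 0.992) was 0.23 with the row as a block. That of -0.75 in Spink3-/-XKI/+ (SE 0.87, limma adjusted p = 0.885) was 1.93. The direction of Sox18 therefore rests on single dim arrays.

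**Figure D3:**
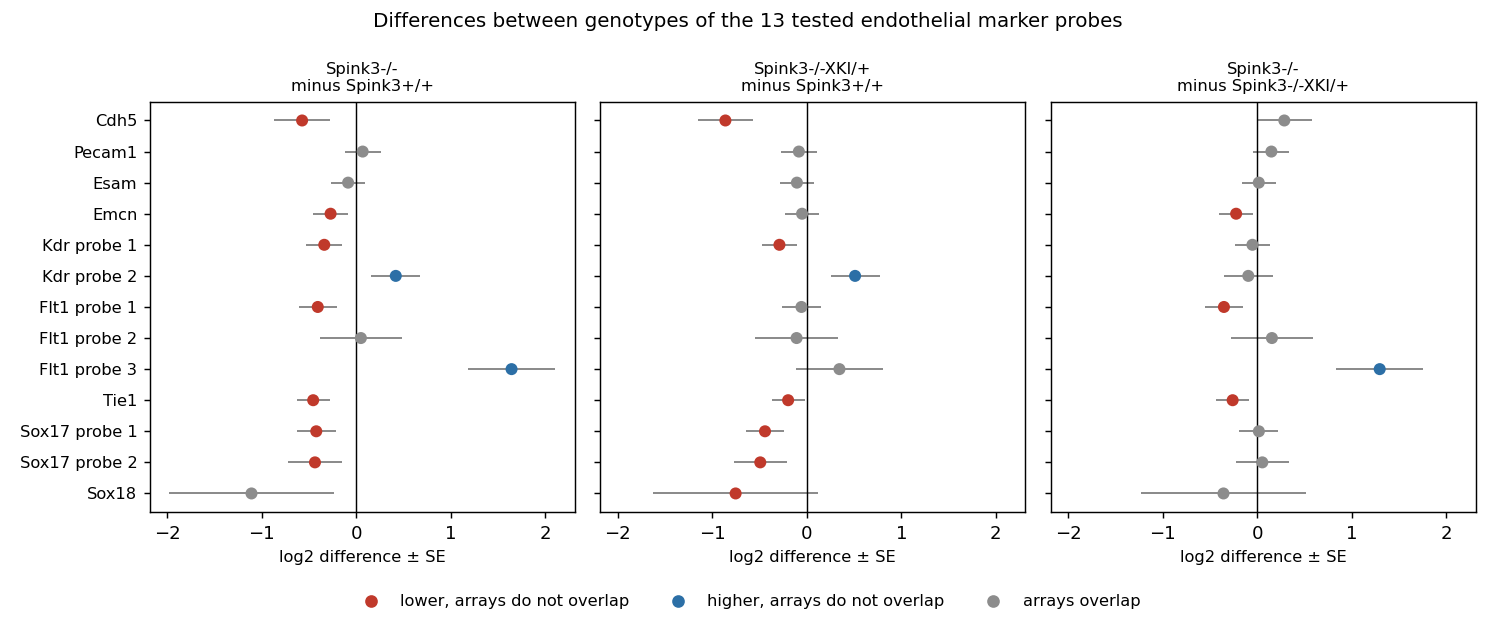
Log2 difference between genotypes (x axis, bars: SE from the limma fit) of the 13 tested endothelial marker probes (y axis) for Spink3-/- minus Spink3+/+, Spink3-/-XKI/+ minus Spink3+/+, and Spink3-/- minus Spink3-/-XKI/+. Red points are lower and blue points higher with no overlap between the arrays of the 2 genotypes; 7 points are red on the left, 6 in the middle and 3 on the right, and no probe passed the test.

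Read over the 13 tested probes, Spink3-/- was lower than Spink3+/+ in 9 and higher in 4, with a median log2 difference of -0.34, against 0.01 over all tested probes. In 7 of the 13 (53.8%), of 6 genes, both Spink3-/- arrays were below both Spink3+/+ arrays. This held for 15.3% of all tested probes. In 2 (Kdr probe 2 and Flt1 probe 3) both were above, against 16.9% of all. Flt1 probe 3, also 1 of the 4 higher probes, was tested only because it cleared the background in Spink3-/-. It did so on neither Spink3+/+ array. Sox18, 1 of the 9 lower probes, was tested only because it cleared the background in Spink3+/+. The count of 7 depended on the scaling. With arrays scaled to the spike-in controls, 1 of the 13 was lower without overlap, against 5.06% of all probes, and the median of all probes was shifted by 0.11. Under that scaling the median of the markers was -0.23, and Esam was not lower in Spink3-/-. With quantile or median scaling the count was again 7. Within slide row 1 alone, where replicate 1 of Spink3-/- stands beside both Spink3+/+ arrays, 8 of 13 were below both, against 39.4% of all probes.

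Spink3-/-XKI/+ was lower than Spink3+/+ in 11 of the 13 and higher in 2, with a median of -0.11 against 0.05 over all tested probes. In 6 (46.2%), of 5 genes, Spink3-/-XKI/+ was lower without overlap, against 15.1% of all probes. Sox18, with its dim array, is 1 of these 6 and of the 11. It was tested only because it cleared the background in Spink3+/+, where it was higher. Kdr probe 2 was the only one higher without overlap, as were 26.5% of all probes. Both comparisons use the same Spink3+/+ arrays. With spike-in scaling 3 of the 13 were lower without overlap, against 8.69% of all probes. Leaving out replicate 2 of Spink3-/-XKI/+ gave 10, against 28.6% of all.

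Between Spink3-/- and Spink3-/-XKI/+, Spink3-/- was lower in 6 probes and higher in 7, with a median of 0.02 against -0.04 over all tested probes. Emcn, Flt1 probe 1 and Tie1 were lower in Spink3-/- without overlap, 3 of 13 (23.1%) against 19.4% of all probes, and 0 of 13 were with spike-in scaling, against 11.6% of all. Flt1 probe 3 was higher without overlap, against 13% of all probes. It entered the fit through Spink3-/- alone and cleared the background on 1 of 2 Spink3-/-XKI/+ arrays, so its fitted difference is not read here. Without replicate 1 of Spink3-/- the count of lower probes was 6 (46.2%, against 33.2% of all) and the median -0.16, which is the comparison within slide row 2. Without replicate 2 of Spink3-/-XKI/+ the count was 5 (38.5%, against 33.2% of all).

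The slide row went with some markers. Of the 13, 3 (Cdh5, Kdr probe 1 and Sox18, 23.1%) had all row 1 arrays above all row 2 arrays, against 5.82% of all tested probes, and 1 (Kdr probe 2, 7.69%) had the opposite, against 12.5%. With the row as a block the markers' median was -0.21 in Spink3-/- against Spink3+/+, -0.064 in Spink3-/-XKI/+ against Spink3+/+, and -0.16 in Spink3-/- against Spink3-/-XKI/+.

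The 11 probes above background everywhere were each centred on their own mean and averaged per array. The average was 0.00 and -0.17 in Spink3-/-, -0.03 and -0.08 in Spink3-/-XKI/+, and 0.11 and 0.17 in Spink3+/+, so both Spink3+/+ arrays were highest. Members differed in how far they followed the others. Over the 6 arrays, which share the genotypes and the slide rows, Kdr probe 1 had a Pearson r of 0.95 with the mean of the other marker probes, Cdh5 0.82, Sox17 probe 2 0.74 and Tie1 0.72. Esam had 0.13, Pecam1 -0.37 and Kdr probe 2 -0.94. These are descriptions of 6 arrays. Among 7818 other genes with a probe above background everywhere and a range of at least 0.5 log2, the 8 most like the average were Arglu1 (r = 0.987), Ubr3, Baz2b, Fto, Tsg101, Med20, Fli1 (r = 0.972) and Zbtb18 (r = 0.972). Of these, Fli1, an ETS-family transcription factor of endothelial and blood cells, is on the list of other endothelial genes, and the gene at rank 100 still had r = 0.892.

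A list of 31 other endothelial genes had 33 tested probes of 27 genes. None was called in any of the 3 comparisons, with a lowest limma adjusted p of 0.579, and 28 of the 33 were lower in Spink3-/- than in Spink3+/+. In 17 (51.5%) the arrays did not overlap, against 15.3% of all tested probes, and the median was -0.21. In Spink3-/-XKI/+ against Spink3+/+, 14 (42.4%, against 15.1% of all) were lower without overlap, with a median of -0.12, and in Spink3-/- against Spink3-/-XKI/+ 9 (27.3%, against 19.4%), with a median of -0.08. With spike-in scaling the counts were 6, 10 and 2 (18.2%, 30.3% and 6.06%), against 5.06%, 8.69% and 11.6% of all probes. Leaving out replicate 1 of Spink3+/+ gave 22 in Spink3-/-XKI/+ against Spink3+/+, where 30.3% of all probes were lower without overlap. Between Spink3-/- and Spink3-/-XKI/+ the count was 18 without replicate 2 of Spink3-/- and 14 without replicate 1 of Spink3-/-XKI/+, where 45.3% and 37% of all probes were lower without overlap.

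The lowest differences of Spink3-/- from Spink3+/+ in this list belonged to Fli1 (-0.59, SE 0.20), Cldn5 (-0.49, SE 0.24), the claudin of endothelial tight junctions, and Eng (-0.40, SE 0.17), a coreceptor for TGF-beta family ligands. In all 3 the arrays did not overlap. Fli1 levels were -0.67 and -0.98 in Spink3-/-, -0.53 and -0.78 in Spink3-/-XKI/+, and -0.30 and -0.16 in Spink3+/+. The highest belonged to probes of Esm1 (0.70, SE 0.49), a secreted proteoglycan of sprouting vessels, Cd34 (0.34, SE 0.21), a sialomucin of vessels and blood progenitors, and Vwf (0.29, SE 0.20), the clotting protein that endothelium stores. Arrays of the 2 genotypes overlapped for Esm1 and Cd34 and not for Vwf. Esm1 levels were 0.83 and -0.77 in Spink3-/-, and -0.79 and -0.55 in Spink3+/+, so its difference rests on 1 array. Vwf and Cd34 each had another probe with a difference of the opposite sign, -0.29 and -0.11.

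Genes of arteries, veins and Notch signalling had 14 tested probes, none called in any comparison. In Spink3-/- against Spink3+/+ 8 (57.1%, against 15.3% of all) were lower without overlap, with a median of -0.26. In Spink3-/-XKI/+ against Spink3+/+ it was 4 (28.6%, against 15.1%), with a median of -0.04, and in Spink3-/- against Spink3-/-XKI/+ 6 (42.9%, against 19.4% of all), with a median of -0.16. Jag2, among both the 8 and the 4, was tested only because it cleared the background in Spink3+/+, where it was high. Notch4, the endothelial Notch receptor (-0.48, SE 0.21), Efnb2, the arterial ephrin (-0.41, SE 0.37), and Gja4, a connexin of arterial endothelium (-0.39, SE 0.18), had the lowest differences of Spink3-/- from Spink3+/+ among probes above background everywhere. Efnb2 arrays overlapped and those of the other two did not. Notch1 (0.27, SE 0.32), Nr2f2, the venous nuclear receptor (0.01, SE 0.19), and Gja5, another arterial connexin (-0.06, SE 0.29), had the highest. Arrays of the 2 genotypes overlapped for each of these. Another probe of Gja5 was above background on both arrays of each mutant genotype and on neither Spink3+/+ array, so its difference is not given.

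Of the 10 tested probes of ligands and coreceptors of these receptors, 5 were lower and 5 higher in Spink3-/- than in Spink3+/+, with a median of -0.04. None was called in any comparison. Vegfa, the main ligand of Kdr and Flt1, had 2 probes, with differences of 0.27 and -0.11. The level of the first of these was 2.98 and 3.17 in Spink3-/-, 2.74 and 3.11 in Spink3-/-XKI/+, and 2.70 and 2.91 in Spink3+/+. This probe was the only 1 of the 10 that was higher in Spink3-/- than in Spink3+/+ without overlap, against 16.9% of all. Vegfc was the only one lower, against 15.3%. Differences were 0.03 for Vegfb, -0.38 for Vegfc, -0.39 for Vegfd and 0.35 for Pgf, the placental growth factor that binds Flt1. Nrp1, a coreceptor of VEGF, had -0.30, its relative Nrp2 0.05 and 0.49 with 2 probes, and Apln, a ligand made by sprouting endothelium, -0.30. In Spink3-/-XKI/+ against Spink3+/+ 3 of the 10 were higher without overlap, against 26.5% of all, and 1 lower, against 15.1%. The higher ones were both Nrp2 probes (0.72, SE 0.20, and 0.56, SE 0.31) and Vegfc (0.36, SE 0.22). The lower one was Apln (-1.50, SE 0.85), which was above background on 1 of the 2 Spink3-/-XKI/+ arrays. Apln was tested only because it cleared the background in Spink3+/+, where it was high. Between Spink3-/- and Spink3-/-XKI/+ 3 of the 10 were lower in Spink3-/- without overlap, against 19.4% of all, and 1 higher, against 13%. The lower ones were Vegfc (-0.74, SE 0.22), Nrp1 (-0.81, SE 0.36) and 1 Nrp2 probe (-0.66, SE 0.20), and the higher one was Pgf (0.95, SE 0.37). Angpt1 and Angpt2, the angiopoietins that bind Tek, had probes that were well above background on 2 of the 6 arrays each and were not tested.

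**Figure D4:**
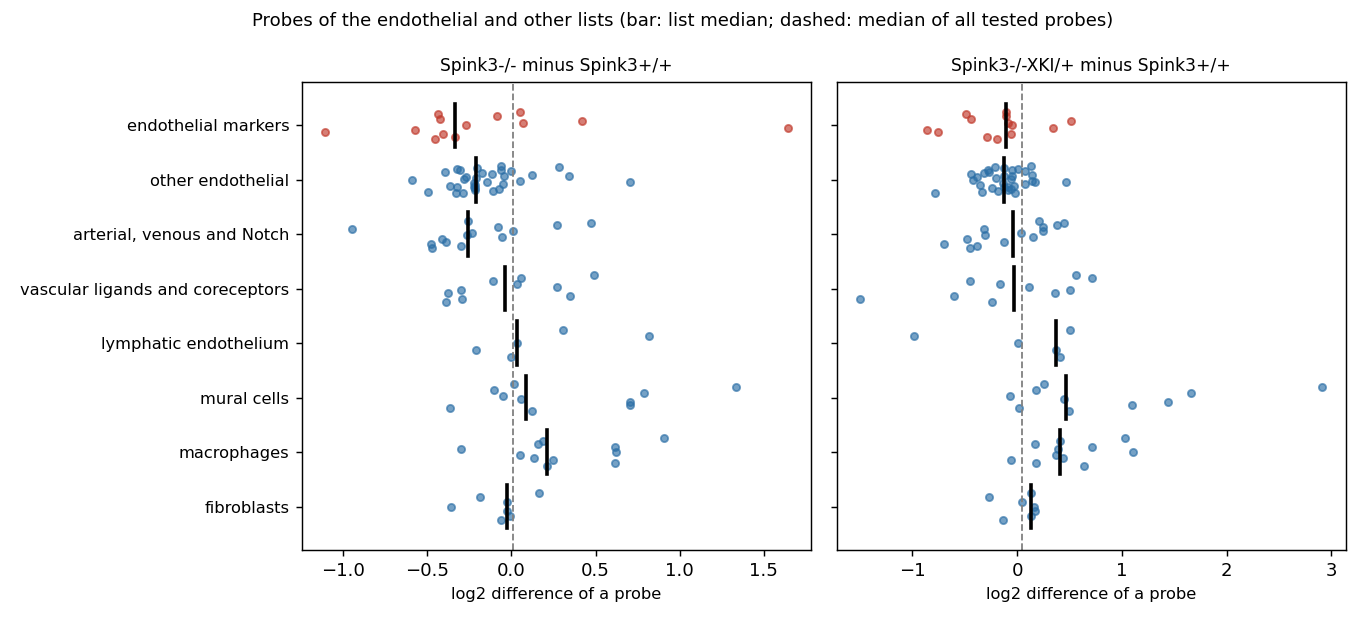
Log2 difference of each tested probe (x axis) in the list of endothelial markers (red) and in other lists (blue, y axis), for Spink3-/- minus Spink3+/+ (left) and Spink3-/-XKI/+ minus Spink3+/+ (right). Black bars are list medians and the dashed line is the median of all tested probes (0.01 and 0.05). The medians of the markers (-0.34 and -0.11) and of the other endothelial genes (-0.21 and -0.12) lie left of the dashed line, and those of macrophages (0.21 and 0.41) and mural cells (0.09 and 0.47) right of it.

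Markers of other cells also stood apart between the genotypes, with none called. Mural cells, the pericytes and smooth muscle that wrap vessels, had a median difference of 0.09 in Spink3-/- and 0.47 in Spink3-/-XKI/+ from Spink3+/+ over 10 probes. Of these, Rgs5 was tested only because it cleared the background in Spink3-/-XKI/+, where it was highest. Macrophages had 0.21 and 0.41 over 11, and lymphatic endothelium 0.03 and 0.37 over 5. Neutrophils had -0.74 and -1.09 over 8, and erythroid cells -0.59 and -1.13 over 6. The neutrophil gene Ctsg was tested only because it cleared the background in Spink3+/+. Striated muscle had 0.42 and 1.285 over 5, of which 2 were above background on all arrays. The mural differences in Spink3-/-XKI/+ were uneven, from -0.07 for Kcnj8 to 2.91 for Myh11. The part of muscle outside the vessels in the mural values was not tested. Of 12 liver probes, 11 were higher in Spink3-/- than in Spink3+/+ without overlap (91.7%, against 16.9% of all), with a median of 1.53, and the median in Spink3-/-XKI/+ was 0.04. Among these 11, the tested probes of Apob and Apoh entered only because they cleared the background in Spink3-/-, where they were high. Signal summed over a list's probes, in units of the array's 75th percentile, ran from 120 to 129 in Spink3-/-, 76.1 to 91.2 in Spink3-/-XKI/+ and 65.8 to 87.0 in Spink3+/+ for liver. For neutrophils it ran from 77.6 to 99.2 in Spink3-/-, 95.4 to 99.2 in Spink3-/-XKI/+ and 118 to 170 in Spink3+/+. For erythroid cells it ran from 566 to 607 in Spink3-/-, 348 to 442 in Spink3-/-XKI/+ and 559 to 1191 in Spink3+/+. For the other endothelial genes it ran from 288 to 331 in Spink3-/-, 319 to 321 in Spink3-/-XKI/+ and 348 to 359 in Spink3+/+. For the 14 marker probes it went the other way, from 138 to 199.5 in Spink3-/-, 163 to 192 in Spink3-/-XKI/+ and 128.5 to 141 in Spink3+/+. Without Kdr probe 2, left out after its values were seen, the other 13 probes summed to 21.7 to 24.3 in Spink3-/-, 24.1 to 25.8 in Spink3-/-XKI/+ and 27.3 to 29.3 in Spink3+/+. Acinar probes had medians of -0.14 and -0.05, and fibroblast probes -0.02 and 0.13. The part of these other cells in the levels of the endothelial markers was not tested.

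Promoters in the RefSeq table (GRCm38.p6) covered 5 of the 10 genes. Of the 6 genes lower without overlap in Spink3-/-, 4 have one, and the 250 bases before their start are shown because a probe of each was lower without overlap. Kdr and Flt1 also had a probe that was higher without overlap. Capitals mark matches to CNGGAA on either strand. This pattern holds GGAA, the core bound by ETS factors, a family to which Fli1 belongs. GGAA without the C of the pattern is left unmarked, so the matches are not all such cores. All 5 promoters of 300 bases held at least 1 match, as did 61.7% of the 32851 promoters in the table. A match is a sequence description and not a binding site.
Tie1, chr4:118489850-118490099, minus strand: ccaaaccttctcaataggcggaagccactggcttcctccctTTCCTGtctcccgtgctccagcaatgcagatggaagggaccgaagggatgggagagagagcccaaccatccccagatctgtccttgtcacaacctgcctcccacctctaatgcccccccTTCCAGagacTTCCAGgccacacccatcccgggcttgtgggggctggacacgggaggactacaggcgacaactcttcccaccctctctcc
Kdr, chr5:75978456-75978705, minus strand: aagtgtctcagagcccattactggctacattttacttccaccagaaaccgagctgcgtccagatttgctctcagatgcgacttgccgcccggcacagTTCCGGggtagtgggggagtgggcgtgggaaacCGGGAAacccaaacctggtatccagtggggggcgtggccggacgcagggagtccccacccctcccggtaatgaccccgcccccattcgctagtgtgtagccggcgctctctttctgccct
Flt1, chr5:147726012-147726261, minus strand: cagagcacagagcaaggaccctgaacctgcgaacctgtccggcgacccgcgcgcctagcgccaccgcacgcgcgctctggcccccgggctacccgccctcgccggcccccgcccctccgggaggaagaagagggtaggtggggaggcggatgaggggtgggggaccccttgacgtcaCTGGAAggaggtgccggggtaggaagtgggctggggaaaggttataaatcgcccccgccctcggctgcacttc
Emcn, chr3:137340828-137341077, plus strand: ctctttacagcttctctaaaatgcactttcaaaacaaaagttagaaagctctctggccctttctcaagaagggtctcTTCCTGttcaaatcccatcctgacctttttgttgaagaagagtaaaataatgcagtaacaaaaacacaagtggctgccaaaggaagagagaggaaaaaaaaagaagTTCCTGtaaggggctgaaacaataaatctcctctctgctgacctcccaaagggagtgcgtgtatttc
The number of matches in these 250 bases was 3 for Tie1, 2 for Kdr, 1 for Flt1 and 2 for Emcn.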

How the data were processed

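Single-colour Agilent arrays measured total RNA of whole pancreas, 2 arrays in each of the 3 genotypes given by the labels. The deposited intensity values came from Agilent Feature Extraction 10.7.3.1 and are its processed signals, background-subtracted and detrended on a linear scale, per the file headers. The deposited flags of that software, scored 0 or 1 per spot, gave outlier spots, which were left out, and spots well above background. The deposited series table held the same intensity for every spot. Here, signals were put on the log2 scale, centred on the 75th percentile per array, and spots of a probe were averaged. The 3 genotypes entered 1 limma fit over all 6 arrays (limma 3.58.1, R 4.3.3, two-sided). Benjamini-Hochberg adjustment ran over 24818 probes, and an adjusted p under 0.05 is a call. The fit was tested on simulated data. Probe names come from the array files and a RefSeq table. The markers and the gene lists were chosen with earlier results of these data known. Every marker and every ligand is named. Of the other endothelial and the arterial lists the 3 highest and 3 lowest are named, and of the genes most like the markers the first 8. Alternatives were other scalings, background correction, filters, a block for slide row or replicate number, and each array left out. The check of replicate numbers gave correlations of -0.04, 0.01 and 0.19 between same-numbered deviations. The labels give same-numbered samples nothing in common but the number, and this check cannot settle whether they share more. Python 3.11.15 with matplotlib 3.10.9 drew the figures.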

Additional observations from a re-analysis of the deposited data

How the results depend on the processing

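No endothelial marker probe and no probe of the 3 wider vascular lists was called under any of the 12 alternatives with all arrays or with any 1 array left out. The counts of called probes among all tested did change: 11 in Spink3-/- against Spink3+/+ became 0 to 15, 2 in Spink3-/-XKI/+ against Spink3+/+ became 0 to 18, and 0 in Spink3-/- against Spink3-/-XKI/+ became 0 to 10. The markers' median difference of -0.34 in Spink3-/- against Spink3+/+ was -0.23 with spike-in scaling, -0.12 with normexp background correction and -0.21 with the slide row as a block, and -0.45 to -0.21 with 1 array left out. In Spink3-/-XKI/+ against Spink3+/+ the median of -0.11 was -0.064 with the slide row as a block and ran from -0.23 to -0.11 with 1 array left out. In Spink3-/- against Spink3-/-XKI/+ the median of 0.02 was -0.094 with 1 probe per gene, -0.16 with the slide row as a block, and -0.16 to 0.062 with 1 array left out. For Spink3-/- the row block and leaving out 1 of its arrays gave the same differences, so they are not separate checks. That array was replicate 2 against Spink3+/+ and replicate 1 against Spink3-/-XKI/+. Counts of probes lower without overlap, an alternative chosen after seeing the data, were 1, 3 and 0 for the markers and 6, 10 and 2 for the other endothelial genes with spike-in scaling. With 1 array left out they ran from 8 to 9, 7 to 10 and 4 to 6 for the markers and from 19 to 24, 17 to 22 and 12 to 18 for the other genes, in the order of comparisons above; fewer arrays overlap less often by construction. Leaving out the filter on dim probes shifted the median of all probes by -0.14 in Spink3-/-XKI/+ against Spink3+/+ and by 0.13 in Spink3-/- against Spink3-/-XKI/+. Single marker differences changed sign in 2, 5 and 5 of 150 values per comparison with all arrays and in 4, 7 and 13 of 78 with 1 array left out, none of them called. With the replicate block the markers had 0 calls and medians of -0.34, -0.11 and 0.02, while all probes had 1, 4 and 0 calls. The causes were not tested. Where leaving out an array left a genotype with 1 array, that array was assumed to vary like the others.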
